A study of Mus musculus with 10 samples.

Results

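The 37 genes described here encode the enzymes and transporters of glycolysis, the kinases that hold back pyruvate dehydrogenase, and the sensors and targets of the hypoxia response. They were chosen by symbol, by matching the versioned Ensembl identifiers of the deposited count tables to mouse gene names, and make up 37 of the 55385 genes listed there. All 37 were found, and 36 of them carried enough counts to be tested. RNA was sequenced from mouse hepatic endothelial cells, with 5 libraries labelled Alk1-HEC-KO (genotype KO) and 5 labelled Control (genotype WT). Alk1 is an alias of Acvrl1, an endothelial receptor for the ligands BMP9 and BMP10. The cells were enriched from the non-parenchymal fraction of a density gradient with magnetic beads against CD146, the product of Mcam. The targeted part of Acvrl1, the driver of its deletion, and the strain, age and sex of the mice were not given in the sources used here.

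The level of the targeted gene went against the labels. Acvrl1 was 239, 246, 250, 258 and 245 CPM (counts scaled to a common library size, with TMM factors between libraries) in the libraries labelled Alk1-HEC-KO, against 125, 125, 136, 114 and 135 CPM in the Control libraries. It was higher in the libraries labelled Alk1-HEC-KO (log2 fold change 0.96 ± 0.05 SE, edgeR adjusted p = 1.7e-07), and counts summed over a gene cannot tell a deleted exon from the rest. The groups are therefore called by their labels throughout, and every direction below is that of the libraries labelled Alk1-HEC-KO relative to Control. Mcam, the target of the beads, also rose, with 541 ± 35.8 CPM in the libraries labelled Alk1-HEC-KO and 330 ± 44.4 CPM in Control (SD, n = 5 each). The part of this difference at the enrichment step in the results below was not tested.

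Glycolysis splits glucose into pyruvate, which either enters mitochondria through pyruvate dehydrogenase or is turned into lactate by lactate dehydrogenase and leaves the cell through monocarboxylate transporters. Endothelial cells are known to draw much of their ATP from glycolysis, and PFKFB3, which makes the strongest activator of phosphofructokinase, is a known control point of vessel sprouting. Under low oxygen, the transcription factors HIF1A and HIF2A (the product of Epas1) escape the prolyl hydroxylases EGLN1 and EGLN3 and the ubiquitin ligase subunit VHL, and switch on most of these glycolytic genes through the hypoxia response element, whose core is ACGTG or GCGTG.

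The promoters of the pair of members with the firmest differences between the groups, Slc16a1 and Aldoa, are shown because one rose and the other fell. Both are the 250 bases before a RefSeq transcription start, 5′ to 3′ on the strand of the gene, with capitals marking the hypoxia response cores ACGTG and GCGTG on either strand. The Slc16a1 window is chr3:104638414-104638663 (GRCm38.p6, plus strand) and ends just before the RefSeq start of the gene. The Aldoa window is chr7:126799255-126799504 (GRCm38.p6, minus strand), which lies inside the annotated gene, before the start of a shorter transcript.
Slc16a1: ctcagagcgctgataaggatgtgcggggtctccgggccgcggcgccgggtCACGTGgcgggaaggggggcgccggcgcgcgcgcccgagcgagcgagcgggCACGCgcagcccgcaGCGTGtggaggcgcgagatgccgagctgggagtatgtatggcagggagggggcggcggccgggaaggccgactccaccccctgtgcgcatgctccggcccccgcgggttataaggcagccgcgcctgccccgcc
Aldoa: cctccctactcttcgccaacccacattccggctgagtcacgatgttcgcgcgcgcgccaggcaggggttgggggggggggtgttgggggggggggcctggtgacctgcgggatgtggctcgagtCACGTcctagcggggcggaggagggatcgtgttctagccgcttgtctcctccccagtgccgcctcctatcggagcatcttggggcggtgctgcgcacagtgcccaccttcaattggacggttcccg
The Slc16a1 window held 4 matches, counting both strands of a palindromic CACGTG, and the Aldoa window held 1. Over 300-base windows (250 bases before and 50 after the start), 31 of the 35 member genes with a RefSeq window held at least 1 match (88.6%), against 64.8% of the 11076 tested genes and 46.7% of all 27025 genes with a window. A gene with several windows has more chances of a match, and the number of windows per gene was not made equal. Counted by window, 41 of 54 member windows (75.9%) held a match, against 43.8% of all 32851 windows. A match is a description of the letters only, and most members that did not pass the test held the core as well. Of the 3 RefSeq windows of Aldoa, the outermost, nearest the annotated start of the gene, held 0 matches. The inner window above is shown because it holds 1. Slc2a3 and Epas1 had no window in the table.

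Library totals were nearly equal, from 23489494 to 23602771 estimated counts. Mitochondrial transcripts made up 3.45 to 4.32% of the counts in the libraries labelled Alk1-HEC-KO and 4.27 to 6.43% in Control, where Control 4 was highest. Without Control 4, Slc16a1 and Aldoa kept their calls described below (log2 fold changes 1.08 and -0.34, edgeR adjusted p = 1.3e-04 and 0.013). The deposited labels do not tie each library to an animal of its own, so the p-values describe the spread among these libraries, part of which may be technical. Endothelial markers were abundant in every library, with summed levels of 7896 to 8366 CPM in the libraries labelled Alk1-HEC-KO and 7831 to 9025 CPM in Control. Of these 6 markers Pecam1 and Mcam rose, and Kdr and Tek fell. Sinusoidal markers summed to 10120 to 11300 CPM in the libraries labelled Alk1-HEC-KO, against 14850 to 16870 CPM in Control, and 5 of the 6 fell. Bile duct markers moved the other way, with 358 to 612 CPM in the libraries labelled Alk1-HEC-KO and 181 to 261 CPM in Control, and 4 of the 5 rose. Hepatocyte markers overlapped between the groups, at 648 to 1407 CPM in the libraries labelled Alk1-HEC-KO and 668 to 2195 CPM in Control, and 4 of the 17 fell (Cyp2e1, Cyp3a11, Apoa2 and Apob). Of the 7 stellate cell markers Ngfr and Rgs5 rose, and of the 5 T and NK cell markers Trac fell. Kupffer cell markers summed to 374 to 956 CPM in the libraries labelled Alk1-HEC-KO and 423 to 1361 CPM in Control, and 0 of the 7 passed. The tested erythroid and B cell markers did not pass either. Neutrophil markers varied most within groups, at 18.7 to 511 CPM in the libraries labelled Alk1-HEC-KO and 36.5 to 291 CPM in Control. No marker of these lists was at 0 in all libraries. In such bulk samples, fewer cells of a type and less RNA per cell cannot be told apart.

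Most of the pathway differed little between the groups. Of the 36 tested members, 2 rose (Slc16a1 and Aldoc), 1 fell (Aldoa) and 33 did not pass an adjusted p of 0.05 (edgeR quasi-likelihood test, adjusted over all 15043 genes tested). The members that rose were 5.56% of those tested and the member that fell was 2.78%, against 10.6% and 9.08% of all genes tested. Both shares lay under the background, but they rest on only 2 and 1 genes, and the gap was not tested. DESeq2 called 2 members higher and 2 lower, and limma-voom 2 higher and 1 lower. By the 5 and 5 CPM values alone, 1 member (2.78%) lay wholly higher in the libraries labelled Alk1-HEC-KO and 3 (8.33%) lay wholly lower, against 8.42% and 7.05% of all genes, which puts the lower share near the background. The median log2 fold change of the members was -0.007, against 0.00 for all genes, and their median absolute log2 fold change was 0.08, against 0.15. The tested members split into 17 with a positive and 19 with a negative log2 fold change.

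The uncalled members were mostly measured closely enough to bound a difference. For 27 of the 33, the whole 95% interval lay within a 1.5-fold difference either way, and for 32 it lay within 2-fold. The 6 with wider intervals were Slc2a3, Hk2, Pfkfb4, Slc16a3, Egln3 and Car9, all under 10 CPM on average. Of the uncalled members, 4 had an unadjusted p under 0.05: Hk2, Pfkl, Pdk2 and Pdha1.

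**Figure D1:**
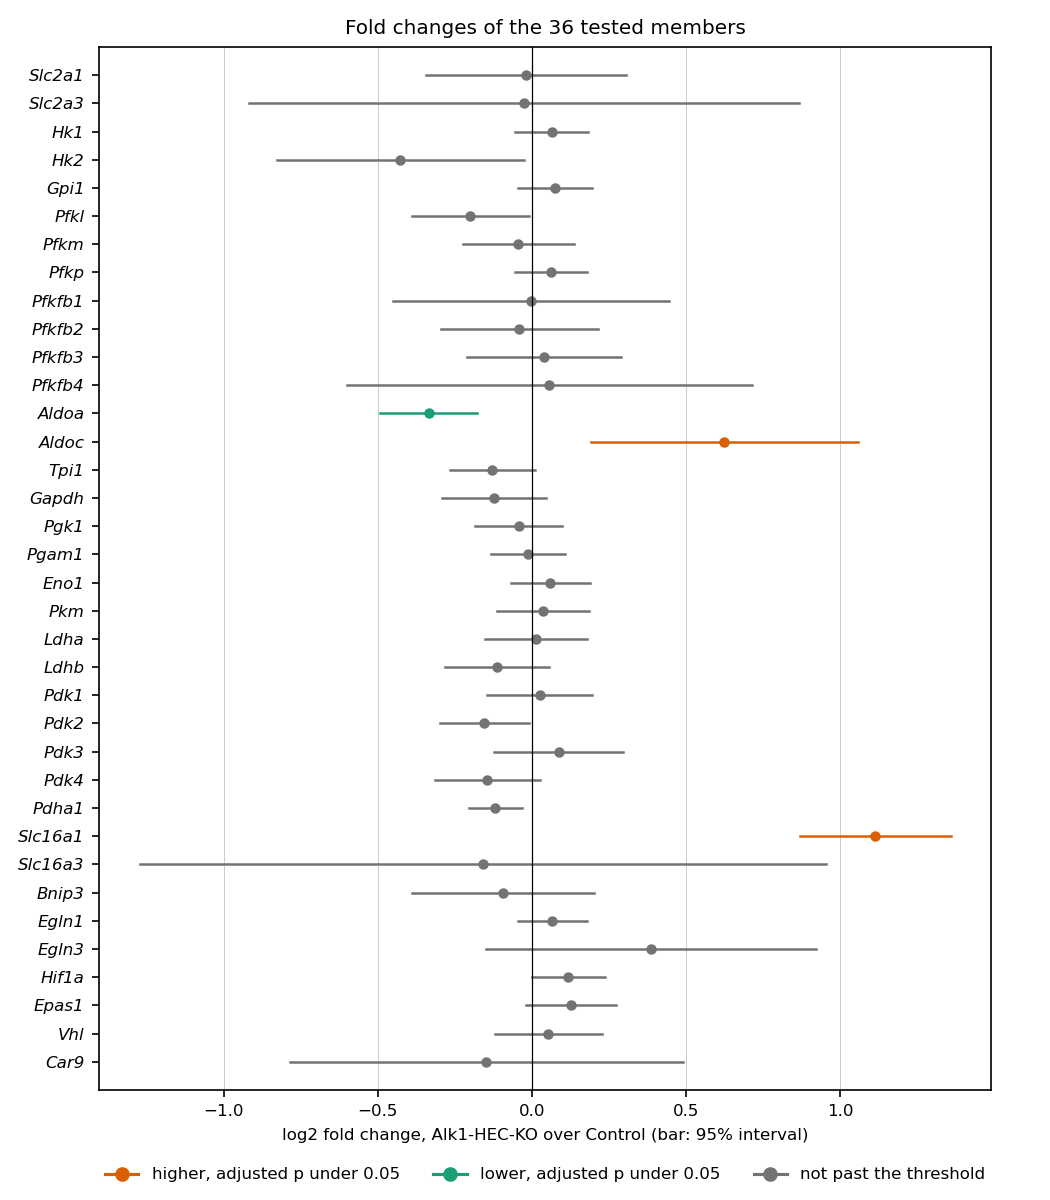
Log2 fold change of each tested member, libraries labelled Alk1-HEC-KO over Control (horizontal axis), with its 95% interval from the edgeR fit; n = 5 libraries per group. Slc16a1 stands apart at 1.11, Aldoc at 0.63 and Aldoa at -0.33 also passed the threshold, and of the others only Hk2, Pfkl, Pdk2 and Pdha1 have intervals that leave out 0.

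Levels ranged widely on the length-corrected TPM scale. In both groups 9 members were at 100 TPM or more, led by Gapdh, with 876 ± 40.9 TPM in the libraries labelled Alk1-HEC-KO and 892 ± 81.5 TPM in Control. Pkm, Aldoa, Ldha, Gpi1, Epas1, Eno1, Ldhb and Pgk1 were the others. Another 9 stayed under 5 TPM in both groups, among them Slc2a3, Hk2 and 3 of the 4 PFKFB genes. Together the 37 genes held 0.369 to 0.401% of the TPM in the libraries labelled Alk1-HEC-KO and 0.346 to 0.387% in Control, and these ranges overlapped.

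**Figure D2:**
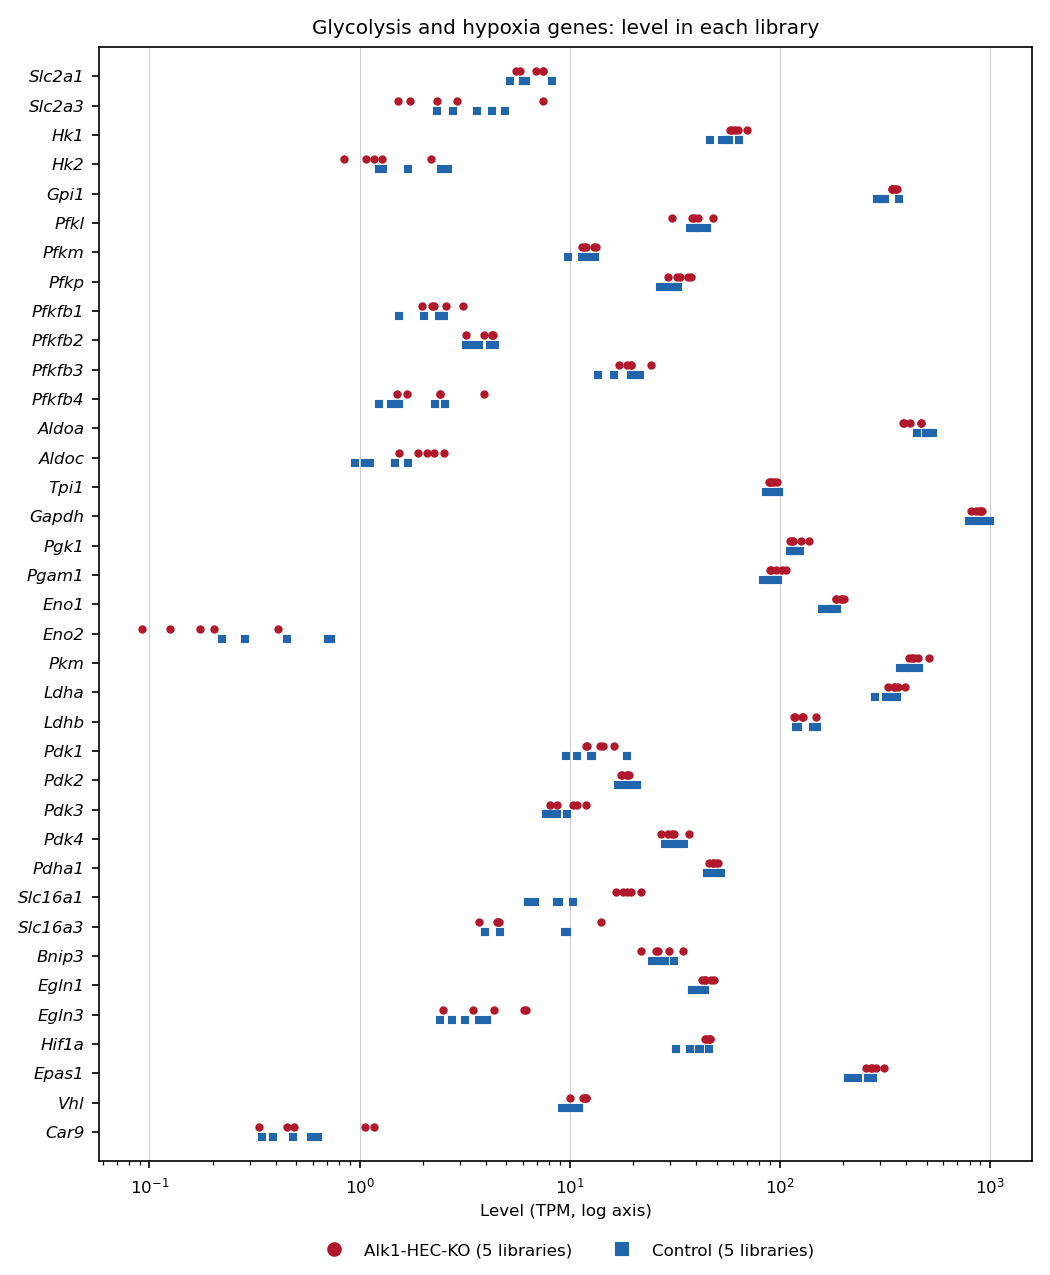
Level of each member in each library in TPM (log axis), with the libraries labelled Alk1-HEC-KO as circles above the Control libraries as squares; 5 libraries per group. The circles of Slc16a1 all lie right of its squares, while those of the abundant enzymes Gapdh and Pkm overlap with theirs.

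Among the members, a lactate transporter gene had the largest fold change and the smallest p. Slc16a1 encodes MCT1, a proton-coupled transporter of lactate and pyruvate. It was 51.1, 45.7, 43.1, 58.1 and 46.5 CPM in the libraries labelled Alk1-HEC-KO, against 22.7, 28.2, 18.4, 20.7 and 23.0 CPM in the Control libraries. Each library labelled Alk1-HEC-KO was above every Control library. The mean was 48.9 ± 5.90 CPM in the libraries labelled Alk1-HEC-KO and 22.6 ± 3.63 CPM in Control (SD, n = 5 each), a 2.16-fold rise (log2 fold change 1.11 ± 0.11 SE, edgeR adjusted p = 2.4e-05). On the TPM scale it averaged 18.9 ± 1.93 in the libraries labelled Alk1-HEC-KO and 8.21 ± 1.64 in Control (SD, n = 5 each). The log2 fold change stayed between 1.04 and 1.21 under all 24 alternative settings and the call held in each. Bile duct markers separated the groups in the same direction, and their part in the rise of Slc16a1 was not tested.

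The other transporter among the members, Slc16a3 (MCT4, the lactate exporter of strongly glycolytic cells), did not pass the test (log2 fold change -0.16, 95% interval -1.27 to 0.95, edgeR adjusted p = 0.87). The transporters need a chaperone to reach the cell surface, and the pair of genes that provide it were in a list of other glycolysis genes. Bsg (basigin, the partner of MCT1 and MCT4) averaged 321 ± 14.6 CPM in the libraries labelled Alk1-HEC-KO and 340 ± 21.9 CPM in Control (SD, n = 5 each), with an edgeR adjusted p of 0.33. Emb (embigin, an alternative partner) was 16.1, 11.3, 11.3, 12.2 and 9.46 CPM in the libraries labelled Alk1-HEC-KO, against 5.01, 8.59, 8.74, 6.68 and 7.18 CPM in Control. Emb thus rose without overlap (1.67-fold, log2 fold change 0.74 ± 0.17 SE, edgeR adjusted p = 0.0081). The estimated counts of Emb were whole numbers in no library, which marks reads divided among transcripts of several genes, so its values are less certain. Without Control 4 and 5 together the Emb call was lost (log2 fold change 0.69, edgeR adjusted p = 0.068).

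Aldolase was the only enzyme step with called members, and its isozymes moved in opposite directions. Aldoa (ENSMUSG00000030695.16, chromosome 7 from 126795234 to 126800751, minus strand) is the main aldolase outside liver parenchyma and brain. Its level was 377, 300, 314, 343 and 359 CPM in the libraries labelled Alk1-HEC-KO, against 393, 451, 461, 423 and 407 CPM in Control. The lowest Control library was just above the highest library labelled Alk1-HEC-KO. Aldoa fell to 339 ± 31.9 CPM in the libraries labelled Alk1-HEC-KO, against 427 ± 28.9 CPM in Control (SD, n = 5 each; log2 fold change -0.33 ± 0.07 SE, edgeR adjusted p = 0.0058). The call held under all 24 alternatives, with log2 fold changes from -0.38 to -0.23. In the deposited TPM the ranges overlapped, at 384 to 468 in the libraries labelled Alk1-HEC-KO and 452 to 536 in Control.

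Aldoc, the brain-type aldolase, was low, at 1.55, 1.81, 2.54, 1.93 and 2.13 CPM in the libraries labelled Alk1-HEC-KO, against 1.01, 1.46, 1.61, 1.35 and 1.03 CPM in Control. The lowest library labelled Alk1-HEC-KO lay below the highest Control library. It rose 1.54-fold (log2 fold change 0.63 ± 0.20 SE, edgeR adjusted p = 0.045), on 24 to 60 counts per library. This call was lost under 13 of the 24 alternatives, with adjusted p up to 0.19, while its direction held. Leaving out any 1 of 8 libraries lost it (adjusted p 0.058 to 0.11), the exceptions being library 1 labelled Alk1-HEC-KO and Control 3. Summed over both genes, aldolase averaged 427 TPM in the libraries labelled Alk1-HEC-KO and 501 TPM in Control, nearly all of it Aldoa.

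**Figure D3:**
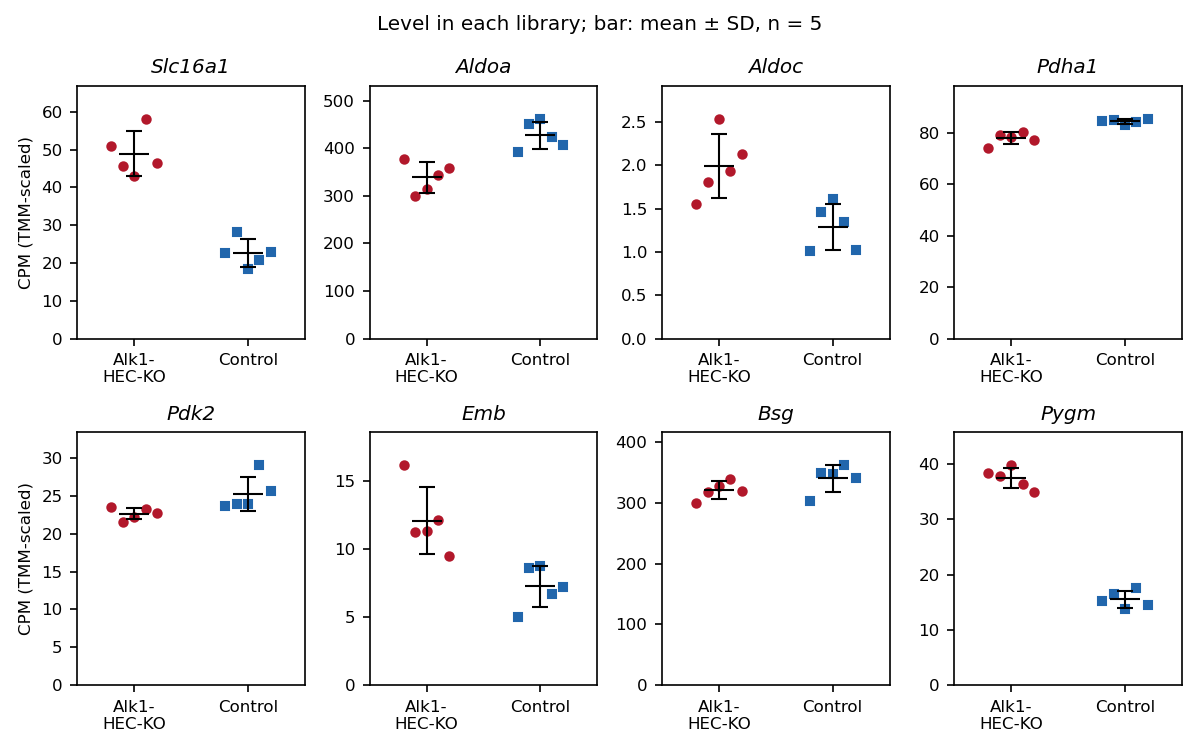
Level in each library in CPM for the called members (Slc16a1, Aldoa, Aldoc), the members without overlap that missed the threshold (Pdha1, Pdk2), the transporter partners Emb and Bsg, and the glycogen phosphorylase Pygm; points are libraries and bars the mean ± SD (n = 5 per group). Slc16a1, Emb and Pygm lie wholly higher in the libraries labelled Alk1-HEC-KO and Aldoa wholly lower, while the Bsg values overlap.

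At the entry of glucose, no member passed the test. Slc2a1 (GLUT1, the common endothelial glucose transporter) was 12.3, 11.1, 8.72, 11.1 and 8.87 CPM in the libraries labelled Alk1-HEC-KO, against 9.59, 8.84, 14.7, 10.5 and 9.31 CPM in Control. The groups overlapped fully, and the log2 fold change was -0.02 (95% interval -0.34 to 0.31). Hk1, the hexokinase that made up most of the hexokinase TPM, averaged 139 ± 6.72 CPM in the libraries labelled Alk1-HEC-KO and 132 ± 8.07 CPM in Control (SD, n = 5 each; edgeR adjusted p = 0.46). Hk2, the inducible hexokinase, was 3.57, 5.38, 2.62, 4.29 and 3.35 CPM in the libraries labelled Alk1-HEC-KO, against 5.30, 5.28, 6.28, 4.68 and 4.31 CPM in Control. All but library 2 labelled Alk1-HEC-KO lay below the lowest Control library, and the difference missed the threshold (log2 fold change -0.43, 95% interval -0.83 to -0.03, edgeR adjusted p = 0.13). Without that library Hk2 passed (log2 fold change -0.59, edgeR adjusted p = 0.035), so 1 library decides this call. Gpi1, phosphoglucose isomerase, had a log2 fold change of 0.07 (95% interval -0.04 to 0.19).

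Phosphofructokinase, the committed step, and the PFKFB enzymes that set its activator held no called member. Pfkl, the liver-type subunit, averaged 81.0 ± 9.77 CPM in the libraries labelled Alk1-HEC-KO and 92.9 ± 8.25 CPM in Control (SD, n = 5 each; edgeR adjusted p = 0.13). The platelet-type Pfkp averaged 59.0 ± 3.84 CPM in the libraries labelled Alk1-HEC-KO and 56.5 ± 2.03 CPM in Control (SD, n = 5 each; adjusted p = 0.46), and the muscle-type Pfkm had a log2 fold change of -0.04. Pfkfb3 was 66.3, 50.4, 46.6, 51.1 and 49.5 CPM in the libraries labelled Alk1-HEC-KO, against 51.7, 60.2, 40.3, 50.5 and 54.1 CPM in Control. Its groups overlapped, with library 1 labelled Alk1-HEC-KO the highest of the 10 and a log2 fold change of 0.04 (95% interval -0.21 to 0.29). The log2 fold changes of Pfkfb1 and Pfkfb2 were -0.003 and -0.04.

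The enzymes of lower glycolysis, from triose phosphate to pyruvate, were the most abundant members, with summed means of 1828 TPM in the libraries labelled Alk1-HEC-KO and 1778 TPM in Control. None of the 6 tested passed, and their log2 fold changes ran from -0.13 (Tpi1, triose phosphate isomerase) to 0.06 (Eno1, enolase). Gapdh, often used as a reference gene, was 683, 635, 610, 684 and 614 CPM in the libraries labelled Alk1-HEC-KO, against 589, 722, 807, 715 and 678 CPM in Control. Its Control values spanned a wider range than those of the libraries labelled Alk1-HEC-KO, and the edgeR adjusted p was 0.31. Pgk1 and Pgam1, phosphoglycerate kinase and mutase, had log2 fold changes of -0.04 and -0.01. Pkm, pyruvate kinase, averaged 594 ± 43.6 CPM in the libraries labelled Alk1-HEC-KO and 579 ± 43.9 CPM in Control (SD, n = 5 each). The neuronal enolase Eno2 had 2 to 6 counts in the libraries labelled Alk1-HEC-KO and 4 to 8 counts in Control, too few to test. The estimated counts of Gapdh, Pkm, Pfkp and Bnip3 were whole numbers (within 0.02) in no library, which marks reads divided among transcripts of several genes, so their values are less certain than those of Slc16a1, Aldoa and Aldoc, which were whole in all 10.

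At the fork of pyruvate, the lactate dehydrogenase subunits did not pass. Ldha, which favours lactate formation, averaged 305 ± 23.7 CPM in the libraries labelled Alk1-HEC-KO and 302 ± 30.3 CPM in Control (SD, n = 5 each; edgeR adjusted p = 0.93). Ldhb, the heart-type subunit, averaged 80.4 ± 8.69 CPM in the libraries labelled Alk1-HEC-KO and 86.9 ± 7.02 CPM in Control (SD, n = 5 each; edgeR adjusted p = 0.35). Pdha1, the catalytic subunit of pyruvate dehydrogenase, was 74.0, 79.0, 78.4, 80.2 and 77.2 CPM in the libraries labelled Alk1-HEC-KO, against 84.7, 84.8, 83.1, 84.2 and 85.3 CPM in Control. The groups did not overlap, yet the difference was small and just missed the threshold (log2 fold change -0.12 ± 0.04 SE, edgeR adjusted p = 0.051). It passed with DESeq2 (adjusted p = 0.017) and with edgeR without robust estimation (adjusted p = 0.035). It also passed with edgeR using DESeq2 size factors (0.048) or a filter at a mean of 1 CPM (0.049). Under the other 20 of the 24 alternatives Pdha1 did not pass, and its log2 fold change was as small as -0.02. In the deposited TPM the ranges overlapped, at 45.8 to 50.6 in the libraries labelled Alk1-HEC-KO and 44.9 to 52.7 in Control. Its estimated counts were whole numbers in only 1 of the 10 libraries.

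The pyruvate dehydrogenase kinases, which switch that enzyme off, also gave no call. Pdk2 was 23.6, 21.6, 22.3, 23.3 and 22.8 CPM in the libraries labelled Alk1-HEC-KO, against 23.7, 24.0, 23.9, 29.1 and 25.7 CPM in Control. These values did not overlap, but by a narrow gap, with an edgeR adjusted p of 0.13. Pdk4, a fasting-induced and PPAR-driven kinase, had 74.2, 53.6, 62.5, 59.6 and 58.9 CPM in the libraries labelled Alk1-HEC-KO, against 63.8, 71.6, 64.3, 70.1 and 71.3 CPM in Control. All but library 1 labelled Alk1-HEC-KO were below the lowest Control library. Pdk4 did not pass with all libraries (log2 fold change -0.14, edgeR adjusted p = 0.23) and passed without library 1 labelled Alk1-HEC-KO (log2 fold change -0.22, adjusted p = 0.027). Pdk1, the HIF-induced kinase, and Pdk3 had log2 fold changes of 0.03 and 0.09.

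Among the oxygen sensing genes and the 2 hypoxia targets grouped apart from glycolysis (Car9 and Bnip3), no member was called. Epas1, which encodes HIF2A, was the most abundant of the sensing genes, with 842, 880, 939, 916 and 983 CPM in the libraries labelled Alk1-HEC-KO, against 894, 754, 767, 892 and 865 CPM in Control. The groups overlapped (log2 fold change 0.13, 95% interval -0.02 to 0.27, edgeR adjusted p = 0.21). Hif1a averaged 123 ± 3.70 CPM in the libraries labelled Alk1-HEC-KO and 114 ± 8.10 CPM in Control (SD, n = 5 each; edgeR adjusted p = 0.16). The hydroxylase genes Egln1 and Egln3 had log2 fold changes of 0.07 and 0.39 and Vhl of 0.05. Egln3, itself a HIF target, was 6.63, 3.70, 5.25, 9.42 and 8.99 CPM in the libraries labelled Alk1-HEC-KO, against 5.55, 3.82, 6.85, 4.86 and 4.91 CPM in Control. Libraries 4 and 5 labelled Alk1-HEC-KO were the highest of the 10, and the others overlapped with Control (edgeR adjusted p = 0.31).

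Carbonic anhydrase 9, a classical hypoxia marker gene (Car9), stayed low, at 0.301 to 0.715 CPM in the libraries labelled Alk1-HEC-KO and 0.381 to 0.686 CPM in Control. Bnip3, a HIF-induced gene of mitophagy, averaged 26.2 ± 4.85 CPM in the libraries labelled Alk1-HEC-KO and 28.0 ± 4.13 CPM in Control (SD, n = 5 each; edgeR adjusted p = 0.69).

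For 3 members the spread lay within the groups rather than between them. Slc2a3 (GLUT3, a high-affinity glucose transporter) was 14.7, 5.71, 3.57, 4.12 and 4.40 CPM in the libraries labelled Alk1-HEC-KO, against 5.21, 8.28, 8.81, 4.72 and 6.06 CPM in Control. Slc16a3 was 19.6, 5.34, 4.85, 5.68 and 5.36 CPM in the libraries labelled Alk1-HEC-KO, against 6.10, 12.8, 14.9, 6.07 and 5.68 CPM in Control. Pfkfb4, a PFKFB form induced by HIF, was 5.71, 2.59, 2.16, 2.52 and 2.43 CPM in the libraries labelled Alk1-HEC-KO, against 2.69, 3.48, 4.36, 1.84 and 2.43 CPM in Control. In all 3 genes the same libraries were high: library 1 labelled Alk1-HEC-KO first, then Control 3, then Control 2. Their coefficients of variation were the largest of the tested members in the libraries labelled Alk1-HEC-KO, at 71.8% for Slc2a3, 78.3% for Slc16a3 and 48.0% for Pfkfb4.

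The same libraries held the most neutrophil transcripts. S100a8, an abundant neutrophil protein gene, was 95.9, 25.7, 9.35, 10.1 and 3.43 CPM in the libraries labelled Alk1-HEC-KO, against 6.81, 40.3, 56.1, 9.81 and 11.5 CPM in Control. Csf3r, the receptor for the granulocyte growth factor, was 69.1 CPM in library 1 labelled Alk1-HEC-KO, against 28.8 and 49.3 CPM in Control 2 and 3, and at most 16.1 CPM in the other libraries. None of the 5 neutrophil markers was at 0 in every library. Of the 4 tested, 0 passed the threshold by edgeR, DESeq2 or limma-voom, and 0 had an unadjusted p under 0.05 by edgeR. These markers varied so much within groups that the tests bound a difference only loosely. The 95% interval of the log2 fold change was -2.03 to 2.46 for S100a8 and -1.89 to 1.63 for Csf3r. Without library 1 labelled Alk1-HEC-KO, the log2 fold changes were -0.58 for Slc2a3, -0.79 for Slc16a3 and -0.29 for Pfkfb4, and none passed (edgeR adjusted p = 0.086, 0.13 and 0.44). With the mean level of the neutrophil markers as a covariate they were -0.07, -0.13 and 0.09. The part of neutrophil RNA in the levels of these genes was not tested further.

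**Figure D4:**
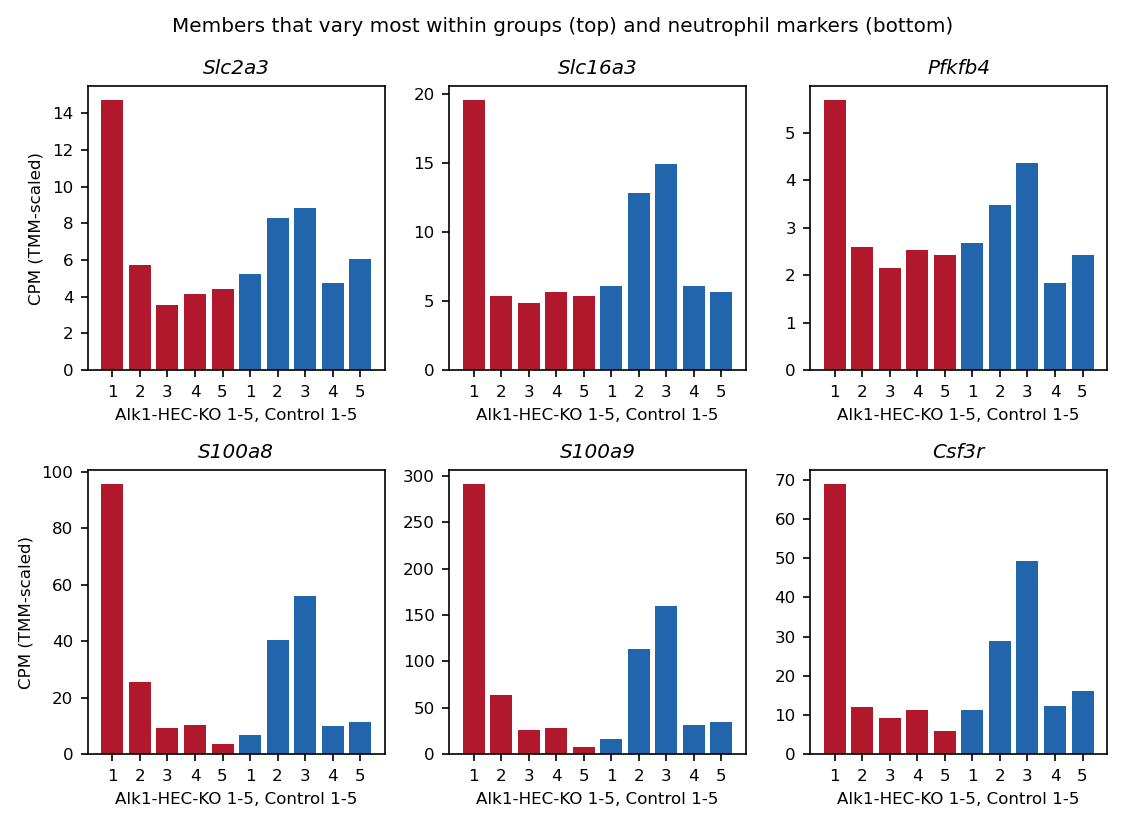
Level in each library in CPM of Slc2a3, Slc16a3 and Pfkfb4 (top) and of the neutrophil markers S100a8, S100a9 and Csf3r (bottom), with the 5 libraries labelled Alk1-HEC-KO left of the 5 Control libraries. Library 1 labelled Alk1-HEC-KO is the highest bar in each panel, followed by Control 3 and Control 2.

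Isozyme use was compared as each gene's share of its family's TPM, with 19 shares tested by exact permutation of the library labels, in a two-sided test. After adjustment over the 19 shares 0 passed 0.05, while 3 had an unadjusted exact p under 0.05. Slc16a1 held 58.0, 79.9, 81.8, 82.6 and 80.2% of the Slc16a1 plus Slc16a3 TPM in the libraries labelled Alk1-HEC-KO, against 65.6, 52.3, 39.4, 63.3 and 68.8% in Control (exact p = 0.032, adjusted p = 0.25). All but library 1 labelled Alk1-HEC-KO, which was high for Slc16a3, lay above every Control library. The share of Aldoa in aldolase was 99.5% ± 0.0977 in the libraries labelled Alk1-HEC-KO and 99.8% ± 0.0508 in Control (SD, n = 5 each), without overlap (exact p = 0.0079, the smallest that 5 against 5 allows, adjusted p = 0.15). With 19 shares, even that smallest p cannot pass the adjustment for a single share.

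The other families were led by the same isozyme in both groups. Eno1 was 99.9% of enolase in the libraries labelled Alk1-HEC-KO and 99.7% in Control (exact p = 0.04, adjusted p = 0.25). Hk1 was 97.9% ± 0.776 of hexokinase in the libraries labelled Alk1-HEC-KO and 96.8% ± 1.098 in Control, and Pfkfb3 was 69.4% ± 1.68 of the PFKFB genes in the libraries labelled Alk1-HEC-KO and 69.7% ± 4.36 in Control (SD, n = 5 each). Pfkl was the leading phosphofructokinase, at 45.9% ± 4.75 in the libraries labelled Alk1-HEC-KO and 49.3% ± 1.91 in Control (SD, n = 5 each), with Pfkp second. Pdk4 was the leading kinase at 42.3% in the libraries labelled Alk1-HEC-KO and 44.3% in Control. Hif1a was 13.9% and Epas1 the rest of their summed TPM in the libraries labelled Alk1-HEC-KO, with Hif1a at 14.2% in Control.

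Neighbouring pathways were read from lists of 114 further genes. The counts of calls in each list stand beside 10.6% of all genes tested that rose and 9.08% that fell. Of 10 tested HIF pathway components (partners, further hydroxylases and ubiquitin ligase subunits), 0 passed by edgeR, DESeq2 or limma-voom and 3 had an unadjusted p under 0.05, and their median log2 fold change was -0.06. The elongins Elob and Eloc, which join VHL in its ligase, had the smallest p, with log2 fold changes of -0.20 and -0.15 (edgeR adjusted p = 0.14 for both). Of 25 tested hypoxia targets outside the members, 4 rose and 1 fell.

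Among the hypoxia targets that rose, Ddit4 (REDD1, an inhibitor of mTORC1) averaged 101 ± 32.4 CPM in the libraries labelled Alk1-HEC-KO and 47.9 ± 11.4 CPM in Control (SD, n = 5 each; edgeR adjusted p = 0.012). Mxi1 (an antagonist of Myc) averaged 38.2 ± 2.02 CPM in the libraries labelled Alk1-HEC-KO and 30.4 ± 2.28 CPM in Control (SD, n = 5 each; edgeR adjusted p = 0.0029). Stc2 (a secreted glycoprotein) averaged 3.19 ± 0.643 CPM in the libraries labelled Alk1-HEC-KO and 1.71 ± 0.556 CPM in Control (SD, n = 5 each; edgeR adjusted p = 0.015). Mxi1 and Stc2 did not overlap between the groups, and without Control 4 and 5 together the Ddit4 and Stc2 calls were lost (edgeR adjusted p = 0.094 and 0.1). Over the 24 alternatives the Stc2 call was lost under 3 and the Ddit4 call under 2. Ero1l, an oxidase of the endoplasmic reticulum, fell (log2 fold change -0.18, edgeR adjusted p = 0.028). Leaving out any of 5 libraries, labelled Alk1-HEC-KO 2, 3 and 4 and Control 2 and 4, lost the Ero1l call, with adjusted p of 0.055 to 0.067. In all it was lost under 12 of the 24 alternatives, with log2 fold changes down to -0.12 and adjusted p up to 0.37 on the TPM scale. The list's median log2 fold change was 0.05, against 0.00 for all genes, with 16 of the 25 tested positive and 9 negative. Vegfa, the best known endothelial growth factor among HIF targets, was among the negative ones. It averaged 17.3 CPM in the libraries labelled Alk1-HEC-KO and 20.2 CPM in Control without passing.

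Among 23 tested further glycolysis genes, 2 rose and 2 fell. Beside Emb, Hkdc1 (a hexokinase-like gene) rose on few counts (log2 fold change 0.99, edgeR adjusted p = 0.044). Leaving out any 1 of 8 libraries lost the Hkdc1 call (adjusted p 0.054 to 0.11), the exceptions being library 4 labelled Alk1-HEC-KO and Control 5. In all the Hkdc1 call was lost under 11 of the 24 alternatives, with adjusted p up to 0.16 and log2 fold changes down to 0.40. Pgm1 (a phosphoglucomutase) fell to 17.4 ± 0.783 CPM in the libraries labelled Alk1-HEC-KO, against 21.0 ± 0.921 CPM in Control, and Slc2a8 (GLUT8, an intracellular hexose transporter) to 30.0 ± 2.68 CPM, against 37.7 ± 3.22 CPM in Control (SD, n = 5 each; edgeR adjusted p = 0.0055 and 0.0088). On the log2(TPM + 1) scale neither Pgm1 nor Slc2a8 passed (limma adjusted p = 0.15 and 0.075). The estimated counts of Pgm1, like those of Emb, were whole numbers in no library, so its values are less certain.

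Of 13 genes for pyruvate entry into mitochondria, 1 fell. Mpc1, a subunit of the mitochondrial pyruvate carrier, was 34.8, 35.3, 32.9, 36.3 and 30.5 CPM in the libraries labelled Alk1-HEC-KO, against 39.9, 38.4, 46.3, 48.6 and 38.7 CPM in Control. The groups did not overlap (log2 fold change -0.32 ± 0.08 SE, edgeR adjusted p = 0.013), and with a hepatocyte marker covariate the adjusted p was 0.086. Its partner Mpc2 had a log2 fold change of -0.02.

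Of 16 genes of the pentose phosphate, serine and hexosamine branches, 1 rose and 3 fell. Gfpt2, a first enzyme of hexosamine synthesis, fell to 9.35 ± 1.59 CPM in the libraries labelled Alk1-HEC-KO, against 17.1 ± 4.002 CPM in Control (SD, n = 5 each; edgeR adjusted p = 0.0027). H6pd, which makes NADPH in the endoplasmic reticulum, fell to 97.6 ± 4.53 CPM in the libraries labelled Alk1-HEC-KO, against 122 ± 10.5 CPM in Control (SD, n = 5 each; edgeR adjusted p = 0.003). Neither gene overlapped between the groups. H6pd was not called on the log2(TPM + 1) or log2(TPM + 0.1) scale (limma adjusted p = 0.11 on both). Tkt (transketolase, log2 fold change -0.16) and Phgdh (the first enzyme of serine synthesis, 0.86) were just past the threshold, with edgeR adjusted p of 0.047 and 0.043, and each was lost when any 1 of 8 libraries was left out (adjusted p 0.058 to 0.092 for Tkt and 0.055 to 0.1 for Phgdh). The exceptions were library 4 labelled Alk1-HEC-KO and Control 1 for Tkt, and library 3 labelled Alk1-HEC-KO and Control 3 for Phgdh. Over the 24 alternatives Tkt was lost under 17 (adjusted p up to 0.57, log2 fold change as small as -0.06) and Phgdh under 12 (adjusted p up to 0.23).

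Of 11 glycogen genes, 2 rose and the other 9 did not pass. Pygm, the muscle-type glycogen phosphorylase, was 38.5, 37.9, 39.8, 36.4 and 34.9 CPM in the libraries labelled Alk1-HEC-KO, against 15.2, 16.5, 13.8, 17.6 and 14.4 CPM in Control. The groups were far apart, a 2.42-fold rise (log2 fold change 1.27 ± 0.07 SE, edgeR adjusted p = 2.0e-07). Gyg, the glycogenin primer, rose less (log2 fold change 0.21, edgeR adjusted p = 0.016), and its adjusted p was 0.13 without library 1 labelled Alk1-HEC-KO, Control 2 and Control 3 together. Its call was lost under 3 of the 24 alternatives.

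A list of 12 genes held regulators of endothelial glycolysis and of Pdk4, along with lipid genes such as Angptl4 and Fabp4. In it 4 genes rose and 1 fell. Myc was 25.3, 18.1, 14.1, 16.7 and 21.7 CPM in the libraries labelled Alk1-HEC-KO, against 7.82, 8.67, 8.72, 5.399 and 8.11 CPM in Control. Angptl4, a PPAR target that inhibits lipoprotein lipase, was 17.4, 11.5, 9.22, 21.6 and 6.73 CPM in the libraries labelled Alk1-HEC-KO, against 2.18, 2.92, 2.88, 4.28 and 2.35 CPM in Control. Both rose without overlap, Myc 2.47-fold and Angptl4 4.55-fold (edgeR adjusted p = 2.2e-04 and 9.9e-04).

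The other calls in that list were smaller. Pparg, a nuclear receptor of fatty acid handling, averaged 17.4 ± 2.34 CPM in the libraries labelled Alk1-HEC-KO and 9.63 ± 2.38 CPM in Control (SD, n = 5 each; edgeR adjusted p = 0.002). Foxo3, a forkhead factor, averaged 51.8 ± 2.40 CPM in the libraries labelled Alk1-HEC-KO and 39.9 ± 4.09 CPM in Control (SD, n = 5 each; edgeR adjusted p = 0.0022). Fabp4, the endothelial fatty acid binding protein gene, fell to 374 ± 43.4 CPM in the libraries labelled Alk1-HEC-KO, against 496 ± 46.3 CPM in Control (SD, n = 5 each; edgeR adjusted p = 0.0057). Foxo1, a known brake on endothelial Myc and glycolysis, had a log2 fold change of -0.19 without passing, and Klf2, the shear-induced factor known to lower Pfkfb3, of -0.04.

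**Figure D5:**
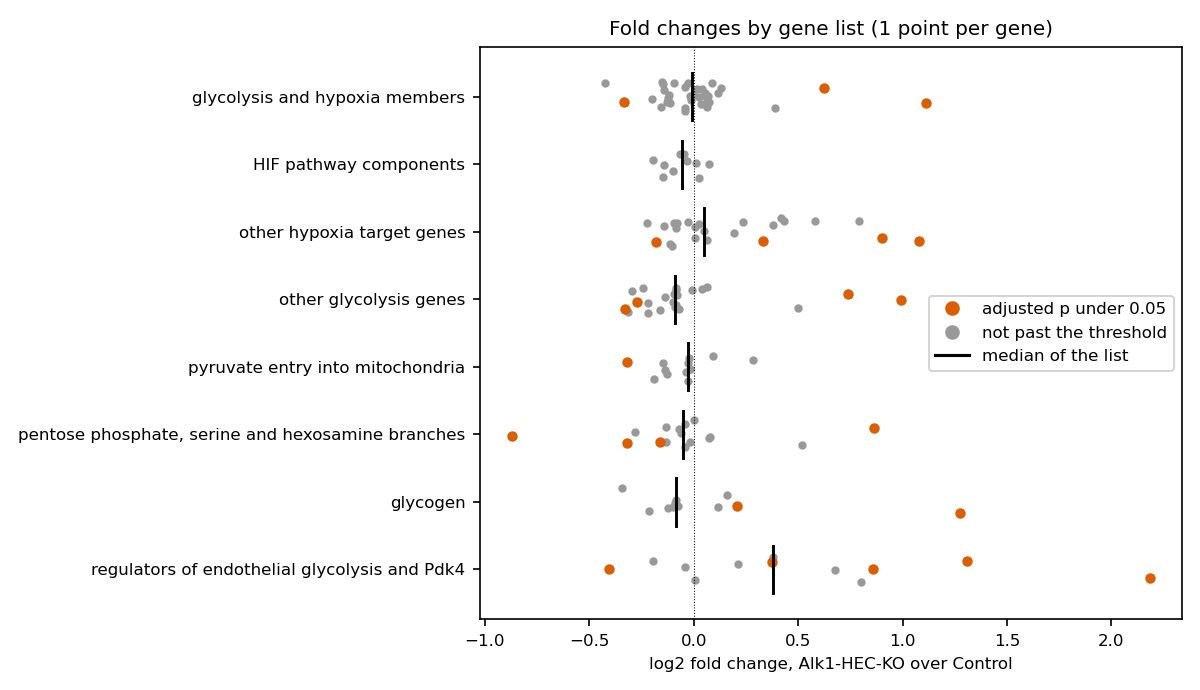
Log2 fold change of the tested genes reported here, libraries labelled Alk1-HEC-KO over Control (horizontal axis), by gene list, with called genes in orange and the list median as a bar; n = 5 libraries per group. The members centre on 0 with Slc16a1 at 1.11 to the right. Angptl4, a lipid gene in the list labelled regulators of endothelial glycolysis and Pdk4, lies far to the right at 2.19.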

How the data were processed

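RNA of 10 libraries was measured, 5 labelled Alk1-HEC-KO and 5 Control, grouped by the sample titles. The submitters' processing notes name Trim Galore 0.6.4, kallisto 0.4.6 and the build GRCm38.p6. The authors deposited expected counts (estimates that need not be whole) and TPM per gene for each library. The annotation release and the library batches were not given in the sources used here. Of 55385 identifiers, 55144 matched a GENCODE M21 symbol by stable ID and 54487 also by version.

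Counts were rounded, filtered with filterByExpr (minimum count 10, 15043 genes left), scaled by TMM (factors 0.94 to 1.04) and tested with the robust quasi-likelihood test of edgeR 4.0.16 in R 4.3.3, with Benjamini-Hochberg adjustment over all genes and a threshold of 0.05. Intervals cover 95%. Replicates differed by more than sampling noise (chi-square per degree of freedom 11.4 to 32.6). Each library counted as 1 sample, although this spread cannot tell separate animals from separate preparations. Scripts were tested on simulated counts.

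The members and the lists were chosen with earlier results of these data known. Genes were named by rule: Acvrl1, all members, the called genes of each list (at most 6, or the 2 with the smallest p where none was called) and cell type markers. Bsg, Mpc2, Vegfa, Foxo1, Klf2, Eno1b and the second Aldoa entry were chosen after their values were seen. A gene of the hypoxia target list that the rule takes counts in its totals and is not reported here. Alternatives were DESeq2 1.42.0, limma-voom (limma 3.58.1), other scalings and filters, limma on log2(TPM + 1) and log2(TPM + 0.1), a replicate block, a hepatocyte covariate, and libraries left out. A neutrophil covariate and a fit without library 1 labelled Alk1-HEC-KO, Control 2 and Control 3 were added after seeing the data.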

Additional observations from a re-analysis of the deposited data

Results flagged for a closer look

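In 7 of 124 groups of 5 libraries, 1 library lay far from the other 4, its gap to the nearest exceeding 0.71 of the group's range. Chance gives about 1 in 20 such groups. Library 1 labelled Alk1-HEC-KO was the high one for 4 members: Slc16a3 at 19.59 CPM (nearest library 5.683), Slc2a3 at 14.74 CPM (nearest 5.711), Pfkfb4 at 5.708 CPM (nearest 2.588) and Pfkfb3 at 66.32 CPM (nearest 51.13). That library also had the highest summed neutrophil markers, 511 CPM. Pdk1 was low in library 5 labelled Alk1-HEC-KO, at 25.14 CPM (nearest 30.32). Vhl was low in library 2 labelled Alk1-HEC-KO, at 15.65 CPM (nearest 18.24). Myc was low in Control 4, at 5.399 CPM (nearest 7.82).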

How the results depend on the processing

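Over the 24 alternatives Slc16a1 and Aldoa kept their calls. The count of members that rose, 2, became 1 with no filter, the replicate block, the hepatocyte covariate, the neutrophil covariate and without Control 4 and 5 together, and 1 to 2 with each library left out; the gene lost was Aldoc, and the cause was not tested. The count that fell, 1, became 2 with DESeq2, no robust estimation, DESeq2 size factors and a mean of at least 1 CPM (Pdha1 added), and 1 to 2 with each library left out (Pdk4 without library 1 and Hk2 without library 2 labelled Alk1-HEC-KO). Of the 36 tested members, 15 changed sign under some alternative while uncalled in both. Without library 1 labelled Alk1-HEC-KO, Control 2 and Control 3 together, 2 members rose and 1 fell.

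Of all genes, 1593 rose and 1366 fell. The split was 1968 and 1024 with library size alone, 1819 and 664 with limma on log2(TPM + 1), 1810 and 668 on log2(TPM + 0.1), and 1074 and 866 without Control 4 and 5 together; with each library left out 1294 to 1561 rose and 1021 to 1357 fell. The largest shift of the median log2 fold change of all genes was 0.10, on log2(TPM + 0.1), where the members' median was 0.11. For the isozyme shares the alternatives say nothing of stability, since no single share can pass the adjustment.

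Same-numbered libraries did not deviate together in every pair (correlations -0.27 to 0.33), and 3 of 10 libraries correlated best with their own number, so the numbers were not used as pairs. With the replicate block 1432 genes rose and 1135 fell, and of the members 1 rose and 1 fell. At this depth, the 6 uncalled members with intervals wider than 1.5-fold were all under 10 CPM, and Eno2 could not be tested.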

Other observations

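Enzymes of glucose and fructose handling typical of hepatocytes were read as a marker list of 10 genes, of which 1 fell and the others did not pass. Khk, ketohexokinase, the first enzyme of fructose metabolism, was 23.46, 20.71, 21.87, 23.29 and 19.37 CPM in the libraries labelled Alk1-HEC-KO, against 49.02, 51.06, 48.93, 55.88 and 36.97 CPM in Control (log2 fold change -1.15 ± 0.10 SE, edgeR adjusted p = 6.7e-06). The groups did not overlap. The hepatocyte markers Cyp2e1 (14.8 ± 3.96 CPM in the libraries labelled Alk1-HEC-KO and 146 ± 123 CPM in Control) and Cyp3a11 (12.8 ± 4.84 CPM in the libraries labelled Alk1-HEC-KO and 110 ± 83.8 CPM in Control) fell without overlap too (SD, n = 5 each; edgeR adjusted p = 0.0081 and 0.0078). In the whole list of 17 hepatocyte markers 4 fell and 13 did not pass. The log2 fold change was positive for 5 of the 17, and it was -0.08 for Alb. With the mean level of the hepatocyte markers as a covariate, the log2 fold change of Khk was -0.99 (edgeR adjusted p = 1.3e-05). The summed level of the 10 enzymes was 117 to 361 CPM in the libraries labelled Alk1-HEC-KO and 134 to 232 CPM in Control.

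A second gene entry with the symbol Aldoa (ENSMUSG00000114515.2, chromosome 7 from 126800790 to 126809108) averaged 0.878 TPM in the libraries labelled Alk1-HEC-KO and 0.544 TPM in Control and was too low to test. Eno1b, a near copy of Eno1, averaged 0.111 TPM in the libraries labelled Alk1-HEC-KO and 0.196 TPM in Control and was likewise untested.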
